A study of Mus musculus with 2 samples.

Results

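Midkine and pleiotrophin are a pair of small, secreted, heparin-binding growth factors, and the genes of both and of 4 of their receptors were described in the embryonic mouse forebrain. The genes were chosen by symbol, with earlier results of these data known. The ligand genes are Mdk and Ptn. The receptor genes are Ptprz1 (a receptor phosphatase), Alk (a receptor kinase), Lrp1 (an endocytic receptor) and Sdc3 (a syndecan). All 6 symbols matched a single row each among the 43346 annotated genes of the deposited tables. The tissue was whole forebrain of healthy B6NCrl mouse embryos at 10.5 days of development, with males and females in each pool and no genotype or treatment named in the labels. The forebrains of 69 embryos were pooled for replicate 1 and those of 51 other embryos for replicate 2, with 10 ng of total RNA in each library, and these 2 libraries are the only group. The libraries held 41537304 and 38012457 expected counts in annotated genes. With 1 group there is no condition to test, so the results are levels within a library and differences between the pools. A value with ± is a mean with its SD over both libraries (n = 2).

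Both ligands bind sulfated sugar chains. Midkine and pleiotrophin bind the chondroitin sulfate chains of Ptprz1, a transmembrane tyrosine phosphatase of neural progenitors and glia whose activity falls when pleiotrophin binds, and the heparan sulfate chains of syndecan-3. Lrp1 takes up midkine among many other ligands, and Alk is a receptor tyrosine kinase that has been described as a receptor of both proteins and is activated directly by the Alkal proteins. In the developing brain the system is known for neurite outgrowth and for the upkeep of progenitors.

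In RNA of whole pools the cells that made a transcript are not known, and fewer cells of a type cannot be told apart from less RNA per cell. All 8 neuroepithelial markers were detected, meaning at 1 TPM or more in both libraries (TPM is a length-adjusted share of all transcripts), with a summed level of 1576 TPM in replicate 1 and 1483 in replicate 2. All 8 neuronal markers were detected too, at a summed 425.8 and 332.1 TPM. Astrocyte markers were low, with 2 of 5 detected and a summed 4.30 and 4.57 TPM, and oligodendrocyte lineage markers reached 2 of 5 and 12.5 TPM in both libraries. Other cell types were present: mesenchyme (6 of 6 markers, 443.4 and 441.2 TPM), endothelium (5 of 5, 142.4 and 150.9), surface epithelium (5 of 5, 106.8 and 103.3), macrophages (4 of 5, 38.4 and 37.6) and erythroid cells (5 of 5, 17296 and 12808). The part of each cell type in the levels below was not tested.

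Of the 6 genes 5 were detected, and Alk was not. The same limit was passed by 57.3% of 21474 protein-coding genes and by 32.4% of all 43346 annotated genes. The levels ran from 1546 ± 65.2 TPM for Mdk down to 0.035 ± 0.0071 TPM for Alk. Between these stood Ptn, Lrp1, Ptprz1 and Sdc3, in that order of mean TPM, with Ptprz1 above Lrp1 when only coding transcripts were counted.

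**Figure D1:**
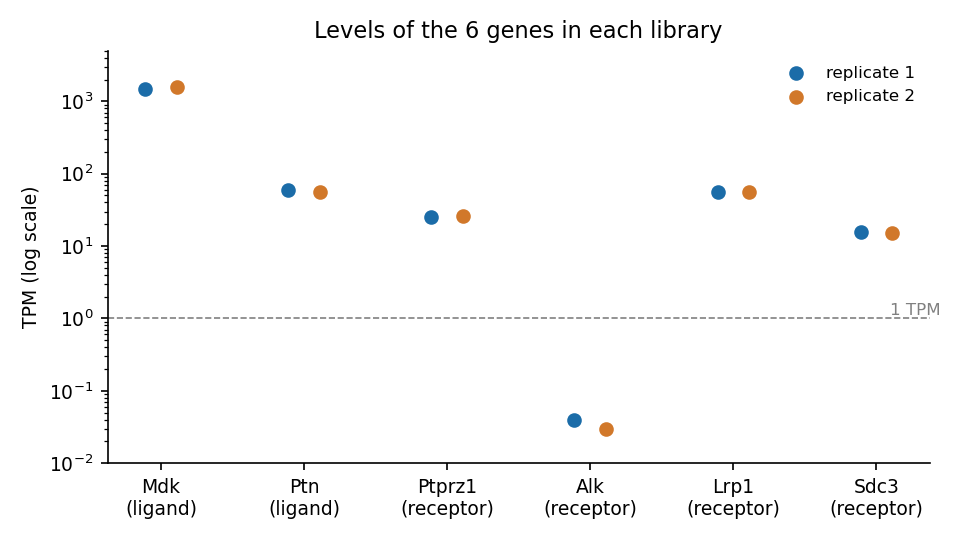
Level of each of the 6 genes in TPM on a log axis, with 1 point per library and the detection limit of 1 TPM as a dashed line. Mdk lies near 1500 TPM in both libraries (1500.3 and 1592.5), 4 genes lie between 15.2 and 58.8 TPM, and Alk lies below the limit.

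Mdk, which encodes midkine, was the most abundant of the 6 genes. Its level was 1500.3 TPM in replicate 1 and 1592.5 TPM in replicate 2, from 27592 and 26427 expected counts. Both libraries lay far above every other member. In mean TPM it was number 48 of the 21474 protein-coding genes, next to the ribosomal protein genes Rpl32 (1574 TPM) above it and Rps14 (1545 TPM) below it. The gene spans 2.493 kb of chromosome 2, from 91929805 to 91932297 on the minus strand of GRCm38, and no other annotated gene overlaps it. A processed pseudogene, Mdk-ps1 on chromosome 11, had 9 and 2 counts.

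Mdk has 4 annotated transcripts, and all of them held the same 420 coding bases before the stop codon. They differ in their first exon, which is noncoding, and in the length of the 3′ end. Mdk-202, with a first exon of 87 bases, carried 73.4% of the TPM of the gene in replicate 1 and 73.3% in replicate 2. Mdk-203 (first exon of 166 bases) carried 17.4% and 16.7%, and Mdk-204 (62 bases) 8.91% and 9.60%. Mdk-201, which starts furthest upstream with a first exon of 368 bases, carried 0.36% and 0.43%. The order of the 4 transcripts was the same in both libraries. These shares are estimates from reads that the transcripts have in common over most of their length. Whichever first exon was used, translation starts in the same second exon, whose coding bases (chr2:91931372-91931447, minus strand) are printed below, read from the GENCODE M21 transcripts on GRCm38, with the start codon in capitals to show where the coding bases that all 4 transcripts share begin.
Mdk exon 2: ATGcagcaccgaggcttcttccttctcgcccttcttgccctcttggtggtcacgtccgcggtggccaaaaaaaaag

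Ptn, which encodes pleiotrophin, was detected at a level more than an order of magnitude below Mdk. Its level was 58.8 TPM in replicate 1 and 55.2 TPM in replicate 2, from 3128 and 2645 counts. In mean TPM it was number 2969 of the protein-coding genes. Within a library Mdk exceeded Ptn 25.5-fold in replicate 1 and 28.9-fold in replicate 2, a mean difference of 4.76 ± 0.13 on the log2 scale. That difference was larger than the spread between the libraries, and counting error left it between 24.6-fold and 26.5-fold in replicate 1 and between 27.7-fold and 30.1-fold in replicate 2 (95% exact binomial intervals). Ptn lies on chromosome 6, from 36714929 to 36810220 on the minus strand, and its 95.292 kb contrast with the compact Mdk locus. The deposited tables hold a single Ptn transcript of 2021 bases, whereas the same transcript is 1614 bases long in GENCODE M21. Both the level and the ratio of Mdk to Ptn thus depend on the older and longer model. Over the shorter length the same counts would give a higher Ptn level and a smaller ratio. The intervals above cover counting error only, not this dependence.

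The ligands share exon structure as well as function. Exon 4 is 162 bases long in both genes and begins in the same reading phase, while exon 3 is 159 bases in Mdk and 174 in Ptn. Set side by side without gaps, 96 of the 162 bases of exon 4 were identical (59.3%). The exons are printed with the identical bases in capitals, to show how far apart the sequences of the ligands are: Mdk from chr2:91930818-91930979 and Ptn from chr6:36741278-36741439, both on the minus strand of GRCm38.
Mdk exon 4: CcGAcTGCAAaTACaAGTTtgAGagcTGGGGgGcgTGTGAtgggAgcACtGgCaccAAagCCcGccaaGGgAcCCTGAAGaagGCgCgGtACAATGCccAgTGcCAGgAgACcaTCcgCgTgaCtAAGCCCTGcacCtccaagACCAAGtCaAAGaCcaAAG
Ptn exon 4: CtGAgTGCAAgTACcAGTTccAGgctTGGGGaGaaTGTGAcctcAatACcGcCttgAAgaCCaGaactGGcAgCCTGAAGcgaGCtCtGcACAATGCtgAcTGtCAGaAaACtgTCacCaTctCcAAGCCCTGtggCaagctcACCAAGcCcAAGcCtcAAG

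Ptprz1 encodes a receptor phosphatase that exists as a long receptor, a short receptor and a secreted proteoglycan called phosphacan. It was detected at 24.9 TPM in replicate 1 and 25.9 TPM in replicate 2, from 5484 and 5148 counts. In mean TPM (25.4 ± 0.721) it was number 5413 of the protein-coding genes and lay above Sdc3 in both libraries. By gene TPM it lay under Lrp1, but over coding transcripts alone it lay above Lrp1, in both libraries. The gene runs from 22875502 to 23052916 on the plus strand of chromosome 6, and no other annotated gene overlaps it.

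The forms of Ptprz1 could not be separated in these tables. The deposited transcript table holds only Ptprz1-201, the long receptor of 30 exons and 8068 bases, which therefore carried 100% of the gene in both libraries. GENCODE M21 lists 6 transcripts, 3 of them coding. The short receptor form Ptprz1-204 has the same number of exons, but its exon 12 ends after 1000 of the 3547 bases, which leaves out 2547 bases of the extracellular part. Ptprz1-206 has 12 exons and ends by reading through the end of exon 12, so that it codes for a protein without the membrane span and the phosphatase domains. All 4947 bases of Ptprz1-204 and 4939 of the 6871 bases of Ptprz1-206 lie within exons of the long form. Reads from either would thus mostly have been counted as the long form. Divided by the effective length of the short form in place of the long one, the same counts would give a level 1.64 times as high.

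The sequences that tell these Ptprz1 forms apart lie at the end of exon 12. They are printed for the plus strand of GRCm38, from the GENCODE M21 transcripts, since reads over them would be needed to count the forms. In the long form (chr6:23002717-23002746, then chr6:23007274-23007303) the end of exon 12 is in lower case and exon 13 in capitals. In the short form (chr6:23000170-23000199, then the same part of exon 13) an earlier point of exon 12 is joined to exon 13. In the secreted form (chr6:23002717-23002746, then chr6:23002747-23002751) the capitals are the bases after exon 12 up to the end of the stop codon.
Ptprz1-201: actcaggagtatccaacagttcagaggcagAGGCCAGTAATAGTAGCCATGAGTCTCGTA
Ptprz1-204: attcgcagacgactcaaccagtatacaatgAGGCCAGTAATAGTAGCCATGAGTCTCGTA
Ptprz1-206: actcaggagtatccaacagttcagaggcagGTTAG

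Alk, the receptor kinase of the set, gave almost no signal. It had 5 counts in replicate 1 and 3 in replicate 2, a level of 0.04 and 0.03 TPM. Counting error allowed 0.013 to 0.0933 TPM in replicate 1 and 0.0062 to 0.0877 TPM in replicate 2 (95% exact Poisson intervals). These intervals of the counts were scaled by the deposited TPM, which is coarsely rounded at so low a level, so the bounds are approximate. Both upper bounds lay under the limit of 1 TPM. Per effective length Ptprz1 had 656.1 times as many counts as Alk in replicate 1 (95% exact binomial interval 281.0 to 2021) and 1026 times as many in replicate 2 (351.1 to 4979). On the log2(TPM + 0.1) scale the difference was 7.56 ± 0.12, a value that the pseudocount of 0.1 holds down. The deposited Alk model is 4866 bases long, the coding part with its stop codon, whereas Alk-201 has 5454 bases in M21, so reads in the untranslated ends were not counted. The gene lies on chromosome 17, from 71868972 to 72604627 on the minus strand, and at 735.656 kb is the longest of the 6.

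Lrp1 encodes a large endocytic receptor of the LDL receptor family. As a gene it reached 56.7 TPM in replicate 1 and 56.4 TPM in replicate 2, from 8892 and 7896 counts, and was number 2994 of the protein-coding genes in mean TPM. By gene TPM it could not be ordered against Ptn: Ptn was higher in replicate 1 and Lrp1 in replicate 2, and the mean difference of 0.01 on the log2 scale was smaller than its SD of 0.06. By gene TPM it exceeded Ptprz1 2.28-fold and 2.18-fold (1.15 ± 0.05), an order that turned around over coding transcripts alone. Against Sdc3 it was 3.59-fold and 3.71-fold higher (1.86 ± 0.03).

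The gene level of Lrp1 rested mostly on short noncoding transcript models. The full-length coding transcript Lrp1-201, with 89 exons and 14888 bases, had a level of 17.6 TPM in both libraries, 31.0% and 31.1% of the TPM of the gene. The same transcript held 80.9% and 82.0% of the counts of the gene. The 5 models annotated as retained introns together held 64.2% of TPM in replicate 1 and 64.6% in replicate 2, but only 17.3% and 16.0% of the counts. Of 3722 protein-coding genes with such a model and at least 10 TPM in both libraries, 153 (4.11%) had over 50% of their TPM in retained-intron models in both, and the median gene had 8.20% and 8.00%.

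The leading Lrp1 model by TPM was Lrp1-208, with 763 bases at the 3′ end of the gene. It had 19.3 TPM in replicate 1 and 18.5 TPM in replicate 2 from 354.9 and 306.2 counts, and the authors' intervals of 16.8 to 21.1 and 15.9 to 20.4 TPM (level not stated) overlapped those of Lrp1-201, 16.7 to 17.7 and 16.7 to 17.6. Lrp1-204, a model of 15 exons at the 5′ end, had 12.1 and 10.4 TPM, and Lrp1-206 had 3.80 and 6.11 TPM. Lrp1-208 differs from the full-length transcript by only 35 of its bases (4.59%), against 442 of 3436 in Lrp1-204 and 203 of 550 in Lrp1-206. These 35 bases are the end of an intron. They are printed in capitals (chr10:127539563-127539597, minus strand) with the first bases of the exon that follows in lower case (chr10:127539533-127539562), because they are all that sets this model apart from the coding transcript.
Lrp1-208: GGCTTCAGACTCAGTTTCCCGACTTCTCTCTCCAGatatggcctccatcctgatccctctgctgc

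**Figure D2:**
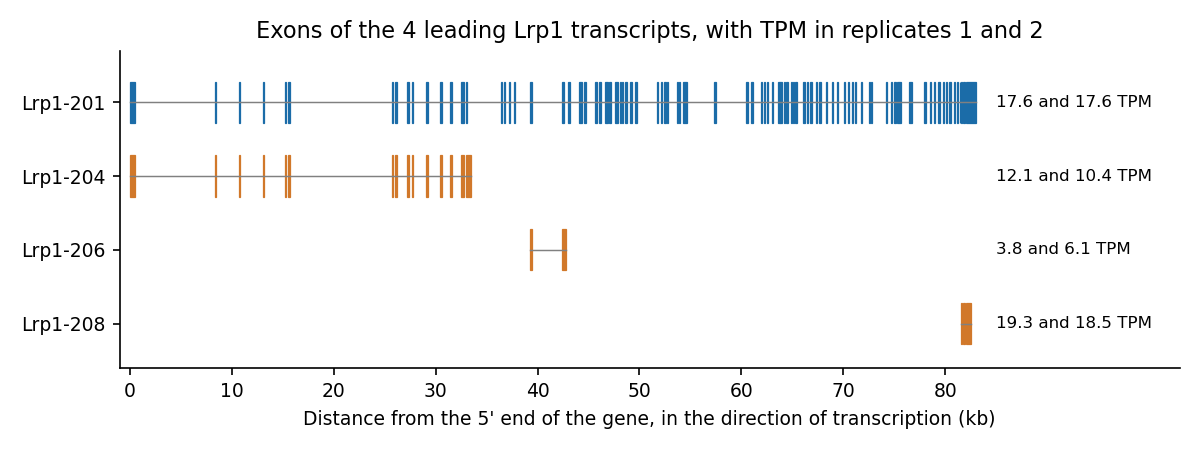
Exons of the 4 Lrp1 transcripts with 5% or more of the TPM of the gene, placed by distance in kb from the 5′ end of the gene, with the TPM of each transcript in both libraries at the right. The coding transcript Lrp1-201 spans the whole gene at 17.6 TPM, and Lrp1-208, at 19.3 and 18.5 TPM, covers only a short stretch near the 3′ end.

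The order of the receptors therefore depended on which Lrp1 transcripts were counted. Summed over coding transcripts alone, Lrp1 stood at 20.3 TPM in replicate 1 and 19.9 TPM in replicate 2, under Ptprz1 in both libraries. This sum could not lower Ptprz1, whose only deposited model is coding and whose retained-intron models in GENCODE M21 were not quantified. It left out Lrp1 models such as Lrp1-208, which differs from Lrp1-201 by only 4.59% of its bases. Among the full-length transcripts Ptprz1-201 lay above Lrp1-201 by 0.53 ± 0.04 on the log2 scale and Lrp1-201 above Sdc3-201 by 0.22 ± 0.03. The first of these differences follows from the coding sums, since Ptprz1-201 is all of Ptprz1 and Lrp1-201 is part of Lrp1. Over coding transcripts the difference between Lrp1 and Sdc3 shrank from 1.86 to 0.41 on the log2 scale. This comparison was added after the transcript values had been seen. The Lrp1 gene lies on chromosome 10, from 127538161 to 127621148 on the minus strand, and the antisense gene Gm16217 inside it had no counts.

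Sdc3 encodes syndecan-3, the heparan sulfate proteoglycan that carries pleiotrophin signals in neurons. Its level was 15.8 TPM in replicate 1 and 15.2 TPM in replicate 2, from 2083 and 1812 counts, and in mean TPM it was number 7031 of the protein-coding genes. It lay under Ptprz1 in both libraries, by 0.71 ± 0.08 on the log2 scale. The coding transcript Sdc3-201 carried 97.2% and 97.6% of its TPM, so that the gene and the transcript level nearly coincided. The gene lies on chromosome 4, from 130792537 to 130826319 on the plus strand. Antisense gene Gm26716, which lies within it, had 46.7 and 36.3 counts. The sources used here do not say whether reads were counted by strand, and without strand these reads and those of Sdc3 cannot be told apart.

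**Figure D3:**
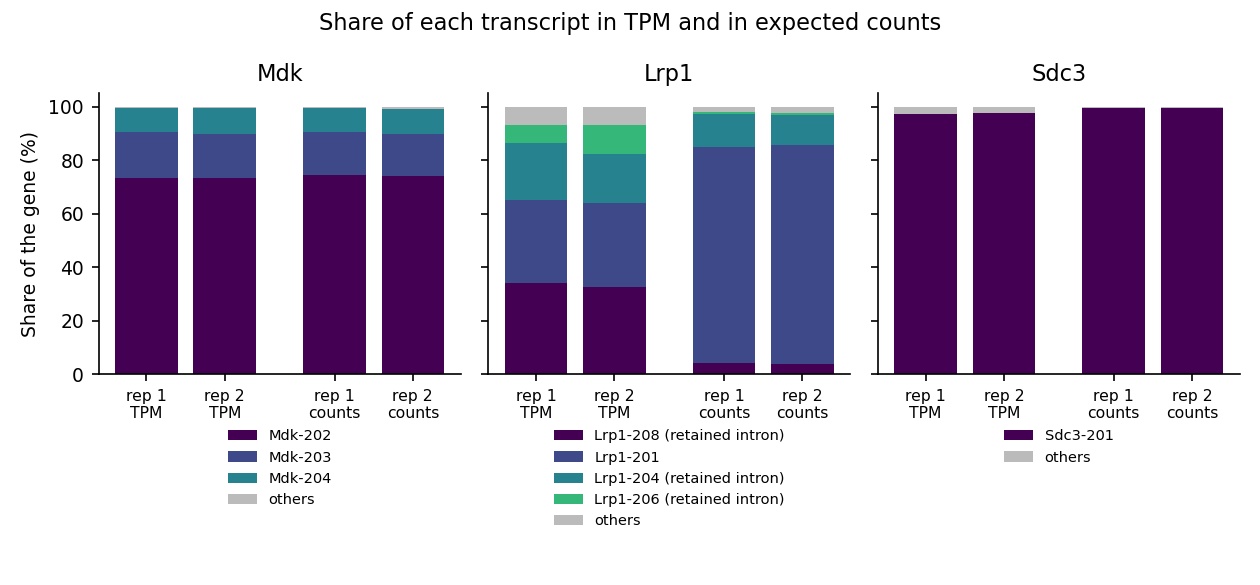
Share of each transcript of Mdk, Lrp1 and Sdc3 in percent, by TPM in the left pair of bars and by expected counts in the right pair, for replicates 1 and 2. Lrp1-201 held 31.0% and 31.1% of Lrp1 by TPM but 80.9% and 82.0% by counts, while Mdk-202 and Sdc3-201 led their genes by both measures.

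The wider system around the 6 genes was mostly detected. Of 112 other genes in 7 lists of partners, relatives, ligands, sugar chain enzymes, substrates and adaptors, 93 (83.0%) were detected, beside 57.3% of all protein-coding genes. Their median level was 11.8 ± 0.226 TPM, beside 3.21 ± 0.074 TPM over all protein-coding genes and 20.2 ± 0.198 TPM over the detected ones. The lists were chosen with earlier results of these data known, so neither comparison is independent of the values.

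Other surface proteins described as binding midkine or pleiotrophin were all detected, 14 of 14, with a median of 17.4 ± 0.527 TPM. Nucleolin, Ncl, a nuclear protein that also occurs at the cell surface, led at 568.6 ± 40.1 TPM. Next came syndecan-1, Sdc1, at 115.9 ± 4.43 TPM, the integrin subunits Itgb1 at 93.2 ± 4.65 and Itga6 at 40.7 ± 1.78, and glypican-2, Gpc2, a neural heparan sulfate proteoglycan, at 30.3 ± 0.771 TPM.

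Among relatives of the 4 receptors 9 of 11 were detected. Sdc3 had the lowest mean gene TPM of the 4 syndecans: Sdc1 stood at 112.8 and 119.1 TPM, Sdc2 at 23.8 and 23.6 TPM and Sdc4 at 16.6 and 19.4 TPM, and Sdc3 was under each of them in both libraries. By counts Sdc3, with 2083 and 1812, lay above Sdc4, with 1083 and 1142, and under Sdc1 and Sdc2. Ptprg, the closest relative of Ptprz1, was at 26.8 and 28.4 TPM and so above Ptprz1 by gene TPM in both libraries. By counts Ptprg was lower, with 2423 and 2122 against 5484 and 5148 for Ptprz1. Their order over coding transcripts alone was not examined. Lrp6, a Wnt co-receptor, reached 14.1 ± 0.799 TPM. Ltk, the only other kinase of the Alk family, was under the limit, with 17 and 2 counts (0.28 and 0.04 TPM), and Lrp1b, the closest relative of Lrp1, was on either side of it at 1.05 and 0.72 TPM.

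The genes of the Alkal proteins, named here because Alk was so low, differed in level. Alkal2 was detected at 2.52 and 3.96 TPM, and Alkal1 had 4 counts and 1 count. Of the 17 other ligands, partners and chaperones of the 4 receptors 11 were detected. The Lrp1 ligand gene Apoe led at 124.9 ± 9.88 TPM, ahead of Mesd at 87.0 ± 3.02 and Lrpap1 at 68.0 ± 0.580, chaperones of the LRP receptors, and of Thbs1 at 34.4 ± 0.771 and Ccn2, formerly Ctgf, at 9.69 ± 0.382. Contactin-1, Cntn1, a neuronal partner of Ptprz1, was just under the limit at 0.79 and 0.81 TPM. Fgf2, Il34 and Tnr were also under 1 TPM in both libraries.

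Enzymes that build or modify the sugar chains bound by both ligands were detected for 28 of 35 genes, with a median of 11.6 ± 0.0919 TPM. The extracellular heparan sulfatases Sulf2 (68.2 ± 1.17 TPM) and Sulf1 (54.5 ± 1.63) and the heparan sulfate polymerase subunit Ext2 (57.1 ± 3.41) were highest. They were followed by B3gat3, which completes the linker of both chain types, at 40.4 ± 1.24 TPM and Extl3, which starts the heparan sulfate chain, at 36.8 ± 1.30. Chst15, which makes the doubly sulfated chondroitin unit that binds midkine tightly, was detected at 7.16 and 7.93 TPM and was named after its values were seen. Chst11, a chondroitin sulfotransferase, stayed under the limit at 0.84 and 0.92 TPM, as did Csgalnact1, Ndst3, Chsy3, Ndst4 and Chst13. Hs6st3 had no count in either library, which allowed up to 0.0825 and 0.0915 TPM (3 counts).

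Core proteins with chondroitin sulfate were detected for 6 of 9 genes, Ptprz1 included. Ptprz1 and versican, Vcan, changed places: Vcan was higher in replicate 1, at 32.4 TPM, and lower in replicate 2, at 23.2 TPM. Neurocan, Ncan, was at 11.5 and 8.94 TPM and biglycan, Bgn, at 10.5 and 8.88. Brevican, Bcan, and aggrecan, Acan, later components of the brain matrix, were under the limit, at 0.14 and 0.15 TPM for Bcan and 0.15 and 0.02 TPM for Acan. Cspg4, a marker of oligodendrocyte precursors, was at 0.52 TPM in both libraries.

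Inside the cell all 12 substrates and partners of Ptprz1 were detected, with a median of 17.4 ± 0.576 TPM. Ctnnb1, which encodes beta-catenin, led at 448.2 ± 1.38 TPM, followed by the adducins Add1 (152.7 ± 2.44) and Add3 (43.0 ± 2.54), paxillin, Pxn (29.8 ± 1.10), and Arhgap35 (28.5 ± 3.24). Adaptors of Alk, Lrp1 and the syndecans were detected for 18 of 19 genes, with a median of 22.1 ± 0.0707 TPM. The syndecan-binding protein gene Sdcbp was at 204.6 ± 3.81 TPM, cortactin, Cttn, at 168.7 ± 7.94, the sorting nexin gene Snx17 at 112.1 ± 0.799, the Lrp1-binding adaptor gene Apbb1 at 90.3 ± 0.106 and Grb2 at 63.8 ± 2.67. The 1 adaptor gene not detected was Shc3, at 1.43 and 0.84 TPM.

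**Figure D4:**
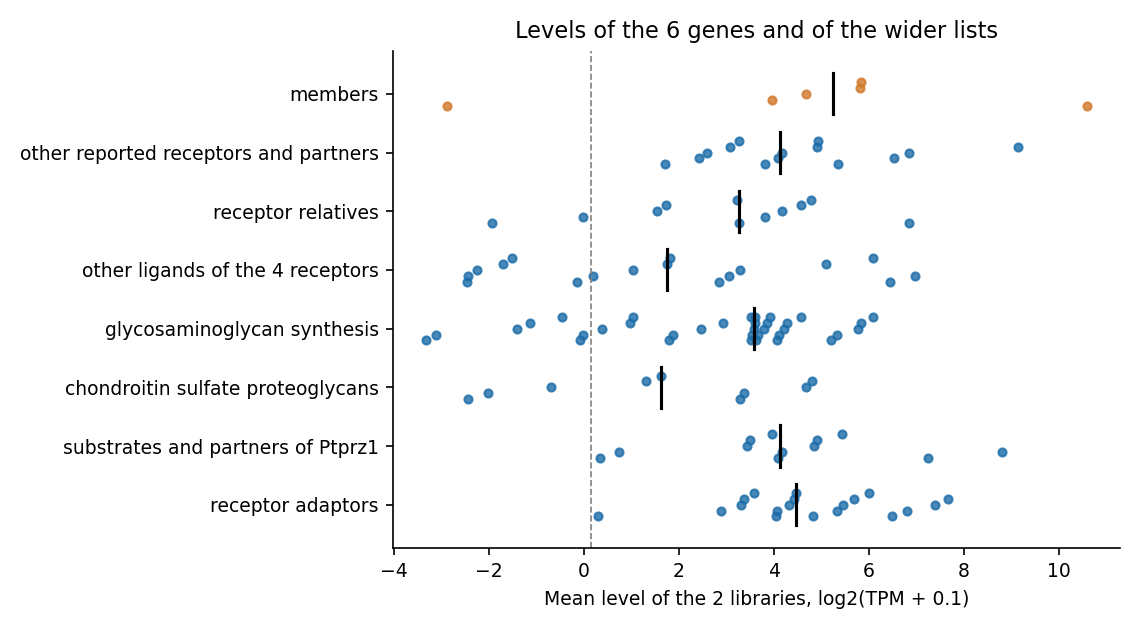
Mean level of each gene on the log2(TPM + 0.1) scale for the 6 genes (orange) and the 7 wider lists (blue), with list medians as black bars and 1 TPM as a dashed line. All genes of the lists of other receptors and of Ptprz1 substrates lie right of the line, while the lists of other ligands and of proteoglycans reach far to its left.

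Between the pools the 5 detected genes differed little. The log2 ratio of replicate 2 to replicate 1 was 0.07 for Mdk (95% exact binomial interval 0.05 to 0.10), 0.05 for Ptprz1 (-0.01 to 0.10), -0.03 for Lrp1 (-0.08 to 0.01), -0.07 for Sdc3 (-0.16 to 0.03) and -0.11 for Ptn (-0.18 to -0.03). The counts of Mdk and Ptn thus differed by more than counting error, in opposite directions. Among the 500 genes nearest in count the spread of the log2 ratio, a scaled median absolute deviation, was 0.06 for Mdk and 0.08 for Ptn. Both ratios were only a little larger in size than this typical deviation, which is not an outer limit of like genes. The share of like genes with ratios as large was not counted, so neither gene is set apart from them. None of the 5 genes passed 2-fold in either direction, beside 0.585% of the 13842 genes whose mean count reached 50, and neither did any of the 99 wider-list genes above that count. Neuronal markers, at 425.8 and 332.1 TPM in sum, and erythroid markers, at 17296 and 12808, were lower in replicate 2; their part in these ratios was not tested. Scaled to the spike-ins, the median of all genes moved to 0.17 and the ratios of Ptn, Lrp1 and Sdc3 turned positive (0.06, 0.13 and 0.10), while relative to that median they stayed at -0.11, -0.04 and -0.07.

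**Figure D5:**
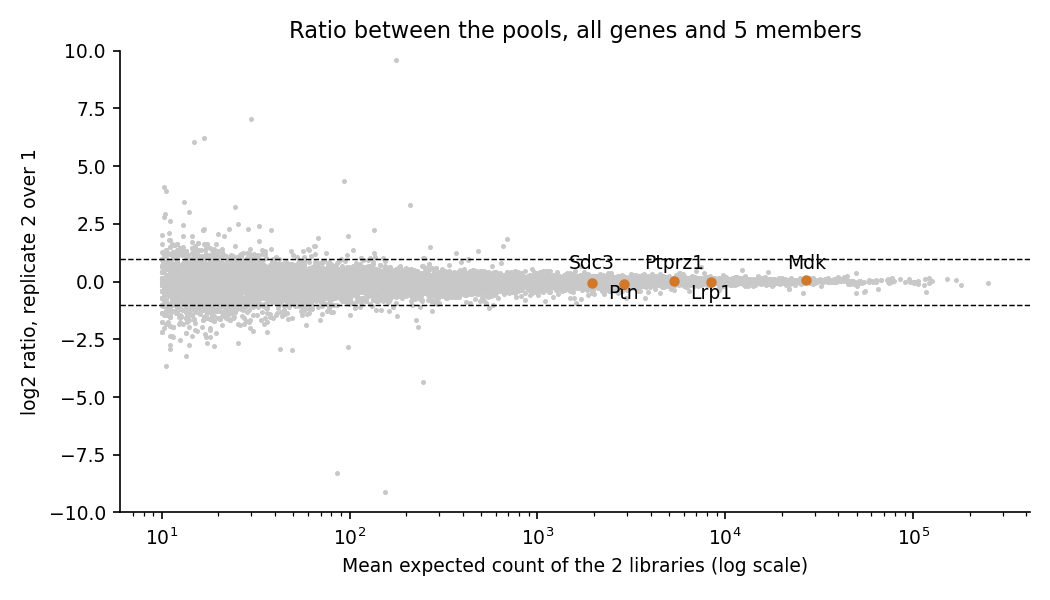
Log2 ratio of replicate 2 to replicate 1 against the mean expected count (log axis) for all genes averaging 10 counts or more (grey) and for the 5 detected members (orange, with 95% intervals of counting error, mostly smaller than the points). The 5 genes lie between -0.11 and 0.07, far inside the dashed lines at 2-fold.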

How the data were processed

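Total RNA of 2 libraries was quantified against mm10 with annotation M4, per the deposited notes. Which aligner and quantifier were used, and whether strand was, is not stated there. The deposited expected counts estimate how many reads came from each gene or transcript and are not normalized. The deposited TPM is a length-adjusted share over all 69691 rows, spike-ins included. The deposited percent values give the share of a transcript in the TPM of its gene, and the FPKM columns deposited by the authors were not used. Levels of the authors' TPM intervals are not stated.

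Symbols came from the gene name table (42462 of 43346 identifiers), transcript types and coordinates from GENCODE M21 (GRCm38). Levels were compared as log2(TPM + 0.1). Pool ratios used expected counts plus 0.5 over library sizes scaled by TMM from edgeR 4.0.16 in R 4.3.3 (counts rounded), and DESeq2 1.42.0 size factors as an alternative. Spreads are 1.4826 times the median absolute deviation. Python 3.11.15 with pandas 2.3.3, numpy 2.4.6, scipy 1.17.1 and matplotlib 3.10.9 did the rest. The ratio step was tested on simulated data. Intervals cover counting error only. By the labels the replicates are separate pools of embryos. The members and lists were chosen with earlier results of these data known. Named genes were the 6 members, their transcripts with 5% or more of TPM, and up to 5 highest and 5 undetected genes per list, except Alkal2, Chst15, Lrp1b, Shc3, Chst13 and Hs6st3, chosen after their values were seen.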

Additional observations from a re-analysis of the deposited data

How the results depend on the processing

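For Mdk over Ptn, Ptprz1 over Alk and Lrp1 over Sdc3, 6 alternative values moved by more than 1 SD of the log2 difference, and each difference kept its sign in the alternatives run. With no division by length the difference was 3.23 for Mdk over Ptn, 9.40 for Ptprz1 over Alk and 2.11 for Lrp1 over Sdc3. The pseudocount of 0.1 also weighs less on the CPM of Alk than on its TPM. With a pseudocount of 1 it was 4.67 for Ptprz1 over Alk, where Alk is near 0, and 1.80 for Lrp1 over Sdc3. With protein-coding transcripts only, Lrp1 over Sdc3 fell to 0.41, an alternative added after seeing the data; Ptprz1 then stood above Lrp1, the reverse of the order by gene TPM, and all 5 neighbouring pairs were in a fixed order (Mdk, Ptn, Ptprz1, Lrp1, Sdc3, Alk), against 4 by gene TPM. That setting could not lower Ptprz1, whose only deposited model is coding. By CPM, which is not per length, Lrp1 and Ptprz1 stood above Ptn, in the order Mdk, Lrp1, Ptprz1, Ptn, Sdc3, Alk. Leaving out a replicate leaves the value of a single library, which with 2 libraries always lies within 1 SD of their mean and so is no test of stability: it gave 4.67 to 4.85 for Mdk over Ptn, 7.48 to 7.64 for Ptprz1 over Alk and 1.84 to 1.88 for Lrp1 over Sdc3, and could not be done for the pool ratios. The count of wider genes ran from 77 at a limit of 5 TPM to 102 at 10 counts. The share of Ptprz1-201 was 100% in each setting because no other form is in the table. No paired analysis was possible because there is a single group. With 3 to 5 counts of Alk, counting error leaves its level and its ratios wide.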
